A study of Mus musculus with 6 samples.

Results

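The genes described here are the transcription factors that drive the epithelial-to-mesenchymal transition (EMT), Snai1, Snai2, Twist1, Twist2, Zeb1 and Zeb2, and the mesenchymal markers Vim and Cdh2. They were taken by gene symbol from the deposited gene table, where all 8 were found among 24067 genes. RNA was sequenced from embryonic submandibular glands of the ICR mouse strain on embryonic day 13. Treatment with blebbistatin, a small molecule that blocks the motor activity of myosin II, was represented by 3 libraries, and control glands of the same strain and age by 3 libraries. The title of the series names the epithelial buds of the gland, while the tissue label of each library names the gland. Levels given below are those of the libraries and may not be those of the whole gland. Dose, duration, vehicle and pooling of glands are not given in the sources used. The labels do not say whether libraries of a group came from separate litters or cultures, so that p-values measure the spread between these libraries alone, which may be technical.

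In an EMT, epithelial cells give up their cadherin-based junctions and apical-basal polarity and take on a motile, mesenchymal form. SNAIL and ZEB proteins are zinc-finger repressors that bind E-box elements in promoters of junction genes such as Cdh1, and TWIST proteins are basic helix-loop-helix factors that act as dimers with E proteins. Vimentin is the type III intermediate filament protein of mesenchymal cells, and N-cadherin, the product of Cdh2, is the adhesion molecule that takes the place of E-cadherin in many such transitions. In the branching mouse salivary gland, clefts divide the epithelial buds, and Snai2 and lowered E-cadherin have been linked to cleft formation through the cleft protein Btbd7.

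The libraries carried an epithelial profile. Epcam, an epithelial adhesion molecule, averaged 385 ± 18.3 FPKM in blebbistatin libraries and 424 ± 21.3 FPKM in control libraries (SD, n = 3 each; FPKM is the fragment count scaled to transcript length and library total). The 19 markers of gland epithelium summed to between 1808 and 2169 FPKM in blebbistatin libraries and between 1970 and 2349 FPKM in control libraries, with the late secretory gene Bpifa2 listed at 0 throughout. The 17 markers of gland mesenchyme summed to between 48.2 and 50.1 FPKM in blebbistatin libraries and between 40.4 and 56.0 FPKM in control libraries, and 10 of the 17 averaged below 1 FPKM. The highest of the 17 were Postn, Col5a1 and Osr1, with means of 14.5, 12.3 and 11.5 FPKM over the 6 libraries. Each library held an estimated 28900000 to 35400000 fragments. In 11540 genes with a mean of at least 1 FPKM, the test (limma on log2(FPKM + 1), Benjamini-Hochberg adjusted p under 0.05) called 9 genes, 0.078% of those tested. In bulk samples, fewer cells of a type and less RNA per cell cannot be told apart.

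The 8 genes fell into 3 ranges of level. Vim was among the most abundant transcripts of these libraries, with a mean of 328 FPKM over the 6 libraries and rank 188 among all genes of the table. Snai2 followed at 20.5 FPKM (rank 3972). The remaining 6 genes, Cdh2 and the other 5 factors, had means between 0.034 and 0.301 FPKM and did not reach the level of 1 FPKM needed for the test in any library. The ranges of Vim, Snai2 and Cdh2 over the 6 libraries did not overlap each other, whereas below Cdh2 each gene overlapped the next in the order Cdh2, Twist1, Snai1, Twist2, Zeb1 and Zeb2.

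**Figure D1:**
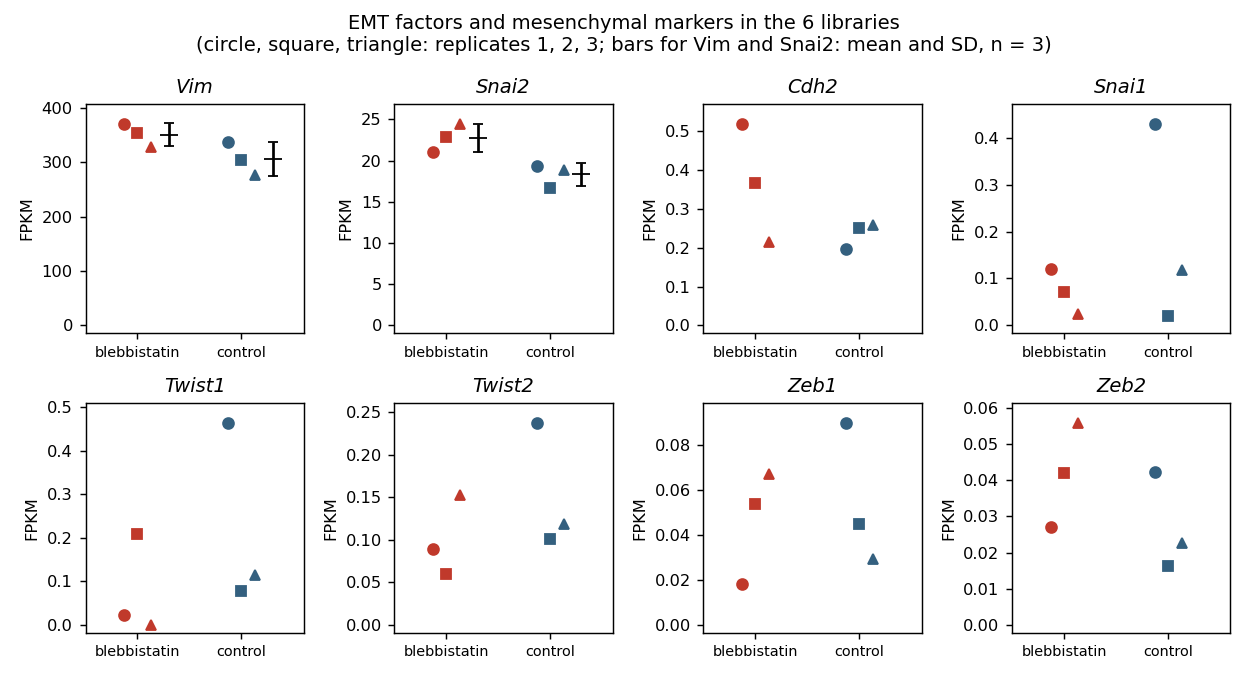
FPKM of the 8 genes in each library, on linear axes with a separate scale for each gene, with blebbistatin libraries in red and control libraries in blue. The bars for Vim and Snai2 give the mean and SD of 3 libraries. The 3 blebbistatin libraries of Snai2 (21.0 to 24.5 FPKM) lie above the 3 control libraries (16.7 to 19.3 FPKM), and for the other 7 genes the groups overlap.

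Snai2, also called Slug, is a SNAIL family member found in neural crest and in basal epithelial cells. It stood at 21.0, 22.8 and 24.5 FPKM in blebbistatin replicates 1 to 3, against 19.3, 16.7 and 18.9 FPKM in control replicates 1 to 3. Each blebbistatin library was thus above each control library, as it was for 7.48% of all genes tested. The means were 22.8 ± 1.71 FPKM in blebbistatin libraries and 18.3 ± 1.41 FPKM in control libraries (SD, n = 3 each), a log2 fold change of 0.30 ± 0.10 (SE, 95% interval 0.081 to 0.519). The difference did not pass over all genes tested (limma adjusted p = 0.304), and its unadjusted p was 0.0134, where 9.36% of genes tested had an unadjusted p under 0.05. An exact two-sided permutation test of Snai2 gave p = 0.1, the smallest that 3 libraries against 3 allow. Snai2 was covered by an estimated 1035 to 1290 fragments per library, so that counting error alone was at most 3.11% of a value.

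Vim encodes vimentin. Its level was 370, 353 and 328 FPKM in blebbistatin replicates 1 to 3, against 337, 303 and 276 FPKM in control replicates 1 to 3. Control replicate 1 was above blebbistatin replicate 3, and the groups overlapped. The means were 350 ± 21.1 FPKM in blebbistatin libraries and 305 ± 30.7 FPKM in control libraries (SD, n = 3 each), and the log2 fold change of 0.20 ± 0.11 (SE, 95% interval -0.055 to 0.457) did not pass (limma adjusted p = 0.700; exact two-sided permutation p = 0.2). Per length, the level of Vim lay within the range of Krt8, a keratin of simple epithelia. Krt8 averaged 328 ± 60.1 FPKM in blebbistatin libraries and 380 ± 78.5 FPKM in control libraries. Vim exceeded Col1a1, a collagen gene of mesenchyme, by 323 to 630 times in blebbistatin libraries and by 110 to 356 times in control libraries. Col1a1 averaged 1.17 FPKM over the 6 libraries. Of the same marker list, Postn (14.5 FPKM), Col5a1 (12.3 FPKM) and Osr1 (11.5 FPKM) were higher, so Vim exceeded them by less. Vim was the highest of the type III and type IV intermediate filament genes. Of the other 10 genes of these types, 9 averaged below 1 FPKM, and Nes, which encodes nestin, stood at 12.3 ± 0.226 FPKM in blebbistatin libraries and 13.1 ± 1.90 FPKM in control libraries (limma adjusted p = 0.982). The highest of the 9 was Ina, a filament gene of neurons, at 0.711 ± 0.183 FPKM in blebbistatin libraries and 0.643 ± 0.215 FPKM in control libraries.

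**Figure D2:**
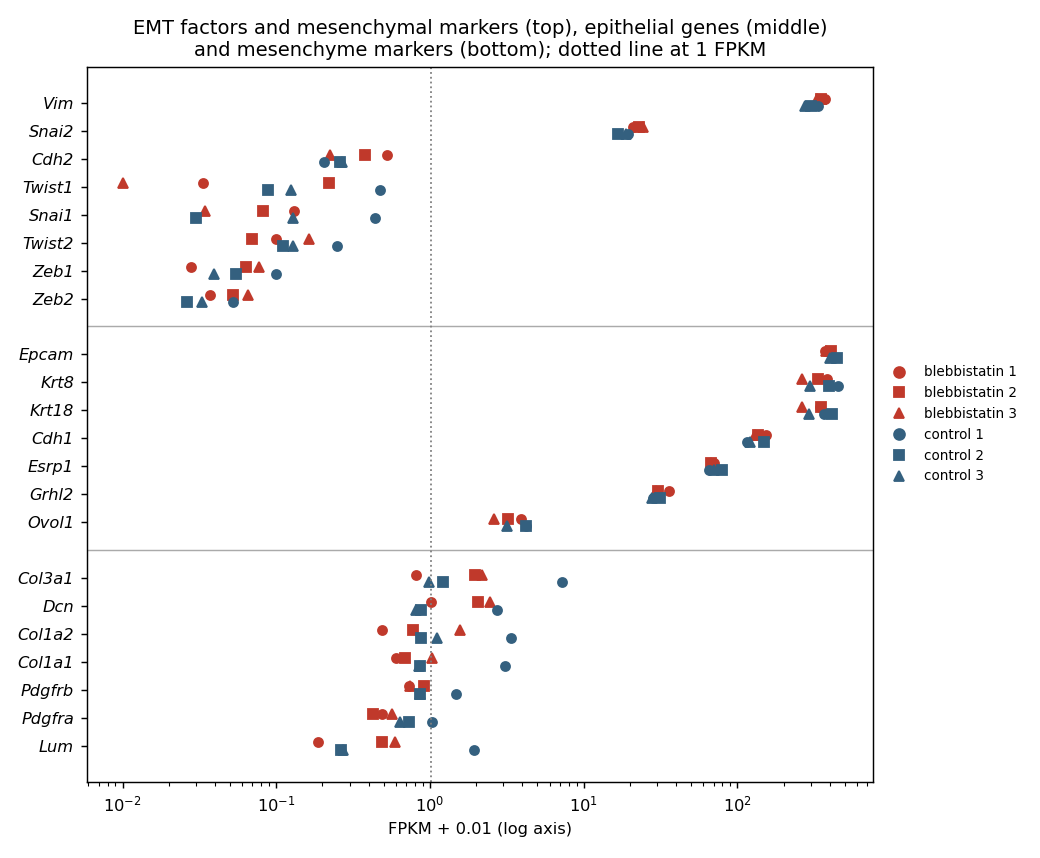
FPKM + 0.01 on a log axis for the 8 genes (top), 7 epithelial genes (middle) and 7 of the 17 markers of gland mesenchyme (bottom), with 1 point per library. Vim lies among Epcam, Krt8 and Krt18, and Snai2 near Grhl2, while Cdh2, the TWIST and ZEB genes and Snai1 lie below 1 FPKM. The mesenchyme markers of highest mean, Postn (14.5 FPKM over the 6 libraries), Col5a1 (12.3 FPKM) and Osr1 (11.5 FPKM), are not shown.

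Cdh2, which encodes N-cadherin, was detected at a low level. It stood at 0.520, 0.367 and 0.215 FPKM in blebbistatin replicates 1 to 3, an estimated 68, 49 and 28 fragments, against 0.196, 0.252 and 0.260 FPKM in control replicates 1 to 3, an estimated 26, 40 and 35 fragments. Blebbistatin replicates 1 and 2 were above the controls, and blebbistatin replicate 3 lay among them (exact two-sided permutation p = 0.3). With no filter on low values, Cdh2 did not pass either (limma adjusted p = 0.748). Cdh1, the E-cadherin gene, was 296 to 603 times as abundant as Cdh2 in blebbistatin libraries and 465 to 593 times as abundant in control libraries.

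The other SNAIL and both TWIST genes were at a few fragments per library. Snai1, the namesake of the SNAIL repressors, was at 0.120, 0.072 and 0.025 FPKM in blebbistatin replicates 1 to 3, against 0.430, 0.020 and 0.119 FPKM in control replicates 1 to 3. These are an estimated 5, 3 and 1 fragments in blebbistatin libraries and 18, 1 and 5 fragments in control libraries. Control replicate 1 stood above all other libraries, and the rest overlapped. Twist1, a factor of head and limb mesenchyme, came to an estimated 1, 9 and 0 fragments in blebbistatin replicates 1 to 3 and to 20, 4 and 5 fragments in control replicates 1 to 3. The value of 0 in blebbistatin replicate 3 allows a level of up to 0.0719 FPKM, the worth of 3 fragments (counting error only). Twist2, a relative of Twist1 in dermal and other connective tissue, came to 3, 2 and 5 fragments in blebbistatin libraries and 8, 4 and 4 fragments in control libraries. Exact two-sided permutation tests of their FPKM gave p = 0.7 for Snai1, p = 0.5 for Twist1 and p = 0.4 for Twist2. With 3 libraries against 3, such a test cannot give a p below 0.1, and with no filter on low values limma gave adjusted p = 0.892 for Snai1, 0.883 for Twist1 and 0.886 for Twist2.

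The ZEB genes were the lowest per length. Zeb1 stood at 0.018, 0.053 and 0.067 FPKM in blebbistatin replicates 1 to 3 and at 0.090, 0.045 and 0.029 FPKM in control replicates 1 to 3, at most an estimated 15 fragments in a library. Zeb2 stood at 0.027, 0.042 and 0.056 FPKM in blebbistatin replicates 1 to 3 and at 0.042, 0.016 and 0.023 FPKM in control replicates 1 to 3, at most an estimated 14 fragments. For Zeb1 and Zeb2 the groups overlapped (exact two-sided permutation p = 0.8 and p = 0.3). Exons of Zeb2 overlap those of Zeb2os on the opposite strand and those of Mir5129, and since no source used states whether the libraries kept strand, the low value of Zeb2 is uncertain. Of its 2 annotated transcripts, NM_001289521 carried nearly all of the level. The microRNA genes of the miR-200 family, whose products repress Zeb1 and Zeb2, were listed at 0 in every library, and the mature microRNAs were not measured here.

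As a sum, the low factors were highest in control replicate 1. Summed over Snai1, Twist1, Twist2, Zeb1 and Zeb2, there were an estimated 19, 34 and 31 fragments in blebbistatin replicates 1 to 3, against 72, 23 and 25 in control replicates 1 to 3. Of the 6 genes below 1 FPKM, 4 were highest in control replicate 1 (Snai1, Twist1, Twist2 and Zeb1). Cdh2, which is not in the sum and had the highest mean of the 6, was lowest in that library (0.196 FPKM). Zeb2 was highest in blebbistatin replicate 3 (0.056 FPKM). Of the 17 mesenchyme markers, 10 were highest in control replicate 1. The share of all genes that were highest there was not computed, so no conclusion is drawn from these counts. The mesenchyme markers of highest mean went otherwise. Postn (10.7 FPKM) and Col5a1 (10.2 FPKM) were at their lowest in control replicate 1, and Osr1 was highest in control replicate 3 (14.7 FPKM). The fibrillar collagen gene Col3a1 was at 0.805, 1.94 and 2.18 FPKM in blebbistatin replicates 1 to 3, against 7.26, 1.21 and 0.971 FPKM in control replicates 1 to 3. No marker of this list was listed at 0 in all 6 libraries, and Dpt had the lowest mean, 0.00382 FPKM. Red blood cell genes also moved between libraries, with summed levels of 1.23, 7.26 and 78.5 FPKM in blebbistatin replicates 1 to 3 and of 308, 2.07 and 277 FPKM in control replicates 1 to 3. Without control replicate 1, Snai1 had 9 fragments over the 3 blebbistatin libraries and 6 over the 2 remaining control libraries, and Twist1 had 10 over the 3 blebbistatin libraries and 9 over the 2 control libraries. The part of mesenchymal cells in these differences was not tested.

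**Figure D3:**
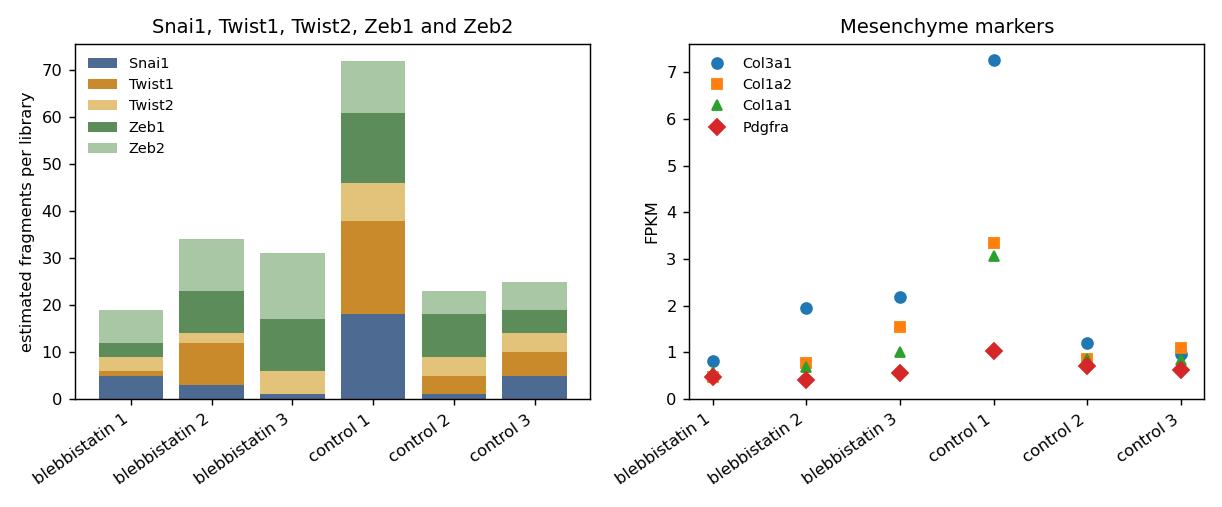
Estimated fragments of the 5 low factors stacked by library (left) and FPKM of 4 mesenchyme markers by library (right), with blebbistatin libraries left of control libraries. Control replicate 1 has 72 fragments, against 19 to 34 in the other 5 libraries, and the highest value of each of the 4 markers. The 4 markers are among the 10 of 17 that were highest in control replicate 1. Postn, Col5a1 and Cdh2, not shown, were lowest in that library.

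The core promoter sequences of Epcam and Vim are given because Epcam represents the epithelial genes and Vim is the abundant mesenchymal marker. They show the 250 bases before the annotated gene start, from RefSeq on GRCm38.p6, 5′ to 3′ on the plus strand, with the E-box CAGGTG (or CACCTG, its complement on the other strand) in capitals. Of the 3 genes looked for, Cdh1, Epcam and Vim, 2 had an entry among the promoter sequences used (Epcam and Vim). Cdh1 had none, so its promoter was not searched for the E-box. The Epcam window is chr17:87635729-87635978 and the Vim window is chr2:13574061-13574310, and neither holds an annotated exon.
Epcam: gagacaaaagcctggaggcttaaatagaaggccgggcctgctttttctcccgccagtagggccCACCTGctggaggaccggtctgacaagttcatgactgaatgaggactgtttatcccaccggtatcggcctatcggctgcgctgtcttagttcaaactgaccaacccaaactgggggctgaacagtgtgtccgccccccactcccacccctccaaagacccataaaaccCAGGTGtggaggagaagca
Vim: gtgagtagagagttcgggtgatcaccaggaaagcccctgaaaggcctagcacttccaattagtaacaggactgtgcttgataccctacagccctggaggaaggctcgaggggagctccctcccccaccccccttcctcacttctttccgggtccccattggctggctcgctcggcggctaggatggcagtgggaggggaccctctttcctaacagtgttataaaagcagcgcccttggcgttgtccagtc
The Epcam window holds 2 matches, which begin at positions -187 and -19 counted back from the start, and the Vim window holds 0. At least 1 match was present in 17.2% of 32851 RefSeq promoter windows of the same length, and at least 2 in 2.06%. These letters are a description of the windows and not of binding.

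Epithelial genes that EMT factors are known to repress averaged between 0.374 FPKM (Muc1) and 405 FPKM (Epcam), with a median of 34.8 FPKM over the 35 listed, and 0 of 34 tested passed (limma). Of the 34, 10 had higher and 24 lower values in blebbistatin libraries, where 55.2% of all genes tested had higher values, with a median log2 fold change of -0.096, against 0.015 over all genes tested. Cdh1 stood at 154, 136 and 130 FPKM in blebbistatin replicates 1 to 3 and at 116, 149 and 121 FPKM in control replicates 1 to 3, and the groups overlapped. The smallest p belonged to Prom2, a membrane protein of cell protrusions, with 7.94 ± 1.17 FPKM in blebbistatin libraries and 11.9 ± 1.75 FPKM in control libraries (log2 fold change -0.53, limma adjusted p = 0.193). Second to Epcam in level was Spint2, a serine protease inhibitor, at 363 ± 23.8 FPKM in blebbistatin libraries and 399 ± 55.3 FPKM in control libraries. Jup, which encodes plakoglobin, averaged 87.3 ± 10.96 FPKM in blebbistatin libraries and 107 ± 12.1 FPKM in control libraries, and the recycling GTPase gene Rab25 averaged 46.8 ± 4.01 FPKM in blebbistatin libraries and 54.6 ± 5.01 FPKM in control libraries. Epithelial regulators that hold EMT back showed 7 higher and 8 lower values among 15 tested, and 0 passed. The splicing factor gene Esrp1 averaged 68.3 ± 2.01 FPKM in blebbistatin libraries and 71.6 ± 7.25 FPKM in control libraries. Its relative Esrp2 averaged 23.7 ± 3.95 FPKM in blebbistatin libraries and 28.2 ± 0.591 FPKM in control libraries (limma adjusted p = 0.578). The p63 gene Trp63, a factor of basal epithelial cells, was at 48.7 ± 4.02 FPKM in blebbistatin libraries and 44.9 ± 1.73 FPKM in control libraries. Of the repressors of Zeb1, Grhl2 averaged 32.0 ± 3.51 FPKM in blebbistatin libraries and 29.2 ± 2.01 FPKM in control libraries, and Ovol1 averaged 3.25 ± 0.643 FPKM in blebbistatin libraries and 3.86 ± 0.602 FPKM in control libraries. The groups of Trp63, Grhl2 and Ovol1 overlapped.

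Other transcription factors associated with EMT covered a wide range of levels. Of 15 reported, 5 averaged below 1 FPKM and 10 were tested, and 0 passed (limma). Of the 10, 3 had higher and 7 lower values in blebbistatin libraries, where 55.2% of all genes tested had higher values. The highest was Etv5, an ETS factor and FGF target, at 163 ± 28.1 FPKM in blebbistatin libraries and 218 ± 20.4 FPKM in control libraries (log2 fold change -0.43, limma adjusted p = 0.342). Its relative Etv4 had 70.2 ± 8.52 FPKM in blebbistatin libraries and 82.9 ± 3.65 FPKM in control libraries (limma adjusted p = 0.556). Tcf3, which encodes the E proteins that pair with TWIST, stood at 113 ± 16.0 FPKM in blebbistatin libraries and 117 ± 14.0 FPKM in control libraries. Prrx2, a homeobox factor of mesenchyme, had 1.97 ± 0.220 FPKM in blebbistatin libraries and 2.64 ± 0.379 FPKM in control libraries (limma adjusted p = 0.462). The third SNAIL paralog, Snai3, averaged 1.02 FPKM over the 6 libraries.

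Partners and corepressors of the SNAIL, ZEB and TWIST proteins were all expressed. All 18 averaged above 1 FPKM, and 0 passed (limma). Of the 18, 11 had higher and 7 lower values in blebbistatin libraries, where 55.2% of all genes tested had higher values. Ctbp1, a corepressor bound by ZEB proteins, was the highest at 145 ± 7.40 FPKM in blebbistatin libraries and 147 ± 18.5 FPKM in control libraries. Id2, an inhibitor of E proteins, was at 85.7, 111 and 101 FPKM in blebbistatin replicates 1 to 3, against 137, 150 and 136 FPKM in control replicates 1 to 3. The groups of Id2 did not overlap, as for 14.3% of genes tested, and it did not pass (log2 fold change -0.51 ± 0.11, SE, limma adjusted p = 0.148). Ajuba, a LIM protein that joins SNAIL in repression and also acts in Hippo signalling, was at 71.6, 54.8 and 52.5 FPKM in blebbistatin replicates 1 to 3, against 49.1, 38.6 and 41.5 FPKM in control replicates 1 to 3. Each blebbistatin library was above each control library, as for 7.48% of genes tested, and Ajuba did not pass (log2 fold change 0.46 ± 0.14, SE, limma adjusted p = 0.289). Id4, a relative of Id2, averaged 27.9 ± 3.62 FPKM in blebbistatin libraries and 34.7 ± 3.04 FPKM in control libraries, with overlapping groups (limma adjusted p = 0.408).

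Of 12 genes that set the stability of SNAIL and TWIST proteins, 9 had higher and 3 lower values in blebbistatin libraries, and 0 passed (limma). Over all genes tested, 55.2% had higher values. The kinase gene Lats2 averaged 10.3 ± 1.49 FPKM in blebbistatin libraries and 7.59 ± 0.195 FPKM in control libraries (log2 fold change 0.39, limma adjusted p = 0.224). Loxl2, an oxidase known to stabilise SNAIL, averaged 26.0 ± 5.27 FPKM in blebbistatin libraries and 17.7 ± 4.55 FPKM in control libraries (limma adjusted p = 0.394), with overlapping groups. The F-box genes Fbxl5 (limma adjusted p = 0.701) and Fbxo11 (limma adjusted p = 0.987) differed by log2 fold changes of 0.15 and 0.05.

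Mesenchymal and EMT effector genes had differences of both signs. Of 28 listed, 17 were tested, 12 with higher and 5 with lower values in blebbistatin libraries, where 55.2% of all genes tested had higher values. The median log2 fold change was 0.049, against 0.015 over all genes tested, and 0 passed (limma). Tagln, a calponin family protein of smooth muscle, was at 332, 388 and 373 FPKM in blebbistatin replicates 1 to 3, against 231, 215 and 266 FPKM in control replicates 1 to 3 (log2 fold change 0.62 ± 0.12, SE, limma adjusted p = 0.0929). Mmp2, a gelatinase, averaged 136 ± 23.1 FPKM in blebbistatin libraries and 183 ± 13.1 FPKM in control libraries (log2 fold change -0.43, limma adjusted p = 0.306). Itgb3, an integrin subunit, averaged 1.09 ± 0.623 FPKM in blebbistatin libraries and 2.45 ± 0.838 FPKM in control libraries (limma adjusted p = 0.366). Acta2, smooth muscle actin, averaged 224 ± 72.1 FPKM in blebbistatin libraries and 144 ± 34.6 FPKM in control libraries (limma adjusted p = 0.533).

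Genes of signals that induce EMT in other settings were listed with receptors, SMADs and other genes. The list also held the inhibitory SMAD gene Smad7, among the lower, and the actin-binding protein gene Twf1, among the higher. The counts are therefore not of inducers alone. Of 17 tested, 14 had higher and 3 lower values in blebbistatin libraries, where 55.2% of all genes tested had higher values. The median log2 fold change was 0.095, against 0.015 over all genes tested, and 0 passed (limma). The ligand gene Tgfb1 had 12.2 ± 3.30 FPKM in blebbistatin libraries and 24.5 ± 4.36 FPKM in control libraries (log2 fold change -0.96 ± 0.19, SE, limma adjusted p = 0.104). Tgfb3 had the opposite sign, with 3.97 ± 0.644 FPKM in blebbistatin libraries and 1.89 ± 0.231 FPKM in control libraries (log2 fold change 0.78 ± 0.13, SE, limma adjusted p = 0.0761). The receptor gene Egfr averaged 7.87 ± 1.96 FPKM in blebbistatin libraries and 4.63 ± 0.611 FPKM in control libraries (limma adjusted p = 0.190). For each of Tgfb1, Tgfb3 and Egfr the groups did not overlap, as for 14.3% of genes tested. The highest levels of the list were those of the receptor genes Fgfr1, at 201 ± 24.6 FPKM in blebbistatin libraries and 198 ± 45.2 FPKM in control libraries, and Notch1, at 43.9 ± 10.1 FPKM in blebbistatin libraries and 42.1 ± 2.58 FPKM in control libraries, each with overlapping groups.

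**Figure D4:**
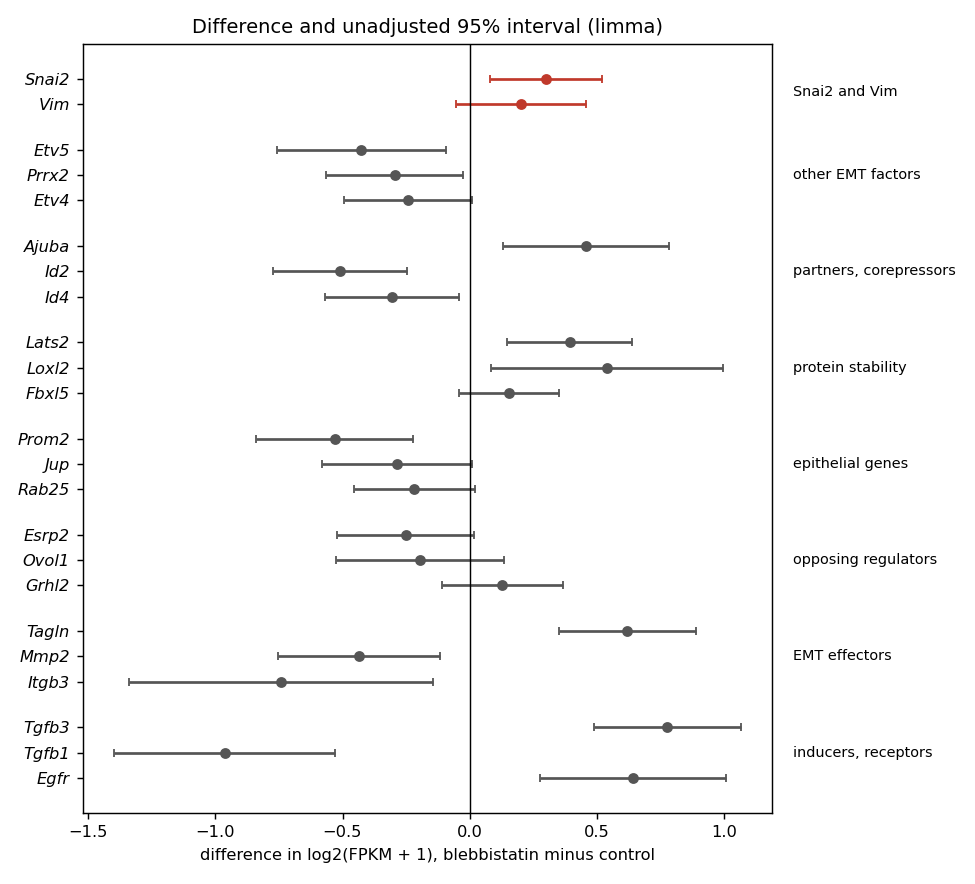
Difference in log2(FPKM + 1), blebbistatin minus control, with unadjusted 95% intervals (limma) for Snai2 and Vim in red and for the 3 genes of smallest p in each of 7 lists in grey. Snai2 (0.30) and Vim (0.20) lie to the right of 0, and none of the genes shown passed an adjusted p of 0.05.

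The genes closest in pattern to Vim and Snai2 were sought among the other 11539 tested genes, by the root mean square difference of their log2 deviations over the 6 libraries. For Vim these were Mrpl40 (0.0224), Antxr1 (0.0239) and 2810025M15Rik (0.0250), against a range of 0.42 of Vim itself. Antxr1, a collagen-binding receptor, had 30.8, 29.2 and 28.3 FPKM in blebbistatin replicates 1 to 3 and 28.7, 26.1 and 23.4 FPKM in control replicates 1 to 3. For Snai2 they were Hmgn3 (0.0512), Oscp1 (0.0564) and Rab38 (0.0604), against a range of 0.52 of Snai2 itself. Hmgn3, a nucleosome-binding protein, had 35.8, 35.7 and 38.2 FPKM in blebbistatin replicates 1 to 3 and 29.4, 26.8 and 29.1 FPKM in control replicates 1 to 3 (limma adjusted p = 0.169).

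On mm10, Vim lies on chromosome 2 from 13574311 to 13582826 with 9 exons, and Snai2 on chromosome 16 from 14705859 to 14709382 with 3 exons. Snai1 lies on chromosome 2 from 167538227 to 167542811, Twist1 on chromosome 12 from 33957671 to 33959831 and Twist2 on chromosome 1 from 91801477 to 91848027. Cdh2 and Zeb1 are both on chromosome 18, and Zeb2 is on chromosome 2 from 44983512 to 45113279. Apart from Zeb2, these genes share no exonic base with a different gene of the deposited annotation.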

How the data were processed

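Per the labels' protocols, RNeasy columns were used for the RNA and Illumina's TruSeq RNA kit for the libraries. The submitters' processing notes name TopHat2 2.0.13, Bowtie2 2.2.3, Cufflinks 2.2.1 and mm10. Values in the tables of genes and of transcripts are the authors' FPKM, 1 column per library, per the file headers, and the RefSeq annotation used was deposited too. FPKM is scaled to each library's total, so no count model was used. Columns were matched by name, with BB read as blebbistatin and an unnumbered column read as replicate 1.

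Genes with a mean of at least 1 FPKM were tested with limma 3.58.1 in R 4.3.3 on log2(FPKM + 1), with a mean-variance trend, treatment as the only term and Benjamini-Hochberg adjustment over all 11540 genes. Fold changes are on this scale and understate the change of low genes. Transcripts were tested in the same way. The test was checked on simulated data with added differences larger than those of Snai2 and Vim, so the check does not bear on differences of their size. The worth of 1 fragment was estimated per library from single-transcript genes whose low values lay within 0.05 of whole multiples (87.7% to 90.8% of them), and fragment numbers of each gene are estimates from it. Exact permutation tests used scipy 1.17.1. The 8 genes and the 16 other lists were chosen with earlier results of these data known. Named genes are the 3 of smallest p and the 2 of highest mean in a list (fewer where fewer were tested), beside the genes of closest pattern, and any other gene named was added after its values were seen. A gene of these lists is not reported here. Alternatives were other pseudocounts, filters, scalings, weights, a replicate block and leaving out each library.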

Additional observations from a re-analysis of the deposited data

How the results depend on the processing

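Snai2 and Vim had higher values in blebbistatin libraries under all 15 alternatives run, and neither passed in any of them. The log2 fold change of Snai2 ranged from 0.24 to 0.35 (limma adjusted p from 0.158 to 0.680), and that of Vim from 0.13 to 0.27 (limma adjusted p from 0.286 to 1.00). The unadjusted p was under 0.05 in 14 of the 15 for Snai2 and in 4 of the 15 for Vim. Of the 8 genes, 0 passed (limma) in the main test, where 1 had an unadjusted p under 0.05, and 0 passed in each alternative.

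The count of 9 genes over the whole table became 57 with array weights, 27 when the filter was raised to 5 FPKM, 14 under quantile normalization, 2 under median-of-ratios rescaling and 1 without any filter, and ranged from 1 (without control replicate 1) to 19 (without blebbistatin replicate 3) when a library was left out. The cause was not tested. Of transcripts, 1 of 14460 passed, and 9 without any filter, 2 when the filter was raised to 5 FPKM, 3 under quantile normalization and 1 to 12 when a library was left out. Of the transcripts of the 8 genes, those of Snai2 (limma adjusted p = 0.424) and Vim (limma adjusted p = 0.752) were high enough for the main test, and neither passed.

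The labels give both groups replicate numbers 1 to 3 without stating a pairing. Deviations from group means of same-numbered libraries correlated across genes with r of 0.182, 0.094 and 0.253, and each library correlated best with its own number. With the replicate number as a block, 144 genes passed over the table and 0 of the 8.

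Values under 1 FPKM rest on few fragments, and the untested log2 differences of Snai1 and Zeb1 changed sign without control replicate 1, as did that of Zeb1 without blebbistatin replicate 1. The differences of all 6 low genes kept their sign but grew in size with pseudocounts of 0.1 and 0.01 FPKM. From a pseudocount of 1 to 0.01 FPKM, that of Twist1 went from -0.17 to -2.05 and that of Zeb2 from 0.02 to 0.50.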

Other observations

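Ratios of Vim to 3 keratins of simple epithelium were computed after the values were seen and were not tested. Vim over Krt8 was 0.967, 1.05 and 1.25 in blebbistatin replicates 1 to 3, against 0.749, 0.767 and 0.934 in control replicates 1 to 3. Vim over Krt18 was 1.08, 1.01 and 1.25 in blebbistatin replicates 1 to 3, against 0.916, 0.734 and 0.937 in control replicates 1 to 3. Vim over Krt19 was 7.81, 12.0 and 15.5 in blebbistatin replicates 1 to 3, against 11.5, 11.6 and 14.8 in control replicates 1 to 3, and the groups overlapped. For the ratios to Krt8 and Krt18 each blebbistatin library was above each control library, while Vim, Krt8 and Krt18 each overlapped between the groups on their own. Of single genes tested, 14.3% had groups that did not overlap. The share among ratios of gene pairs was not computed, so no conclusion is drawn from the ratios. Krt18 averaged 318 ± 48.3 FPKM in blebbistatin libraries and 359 ± 60.2 FPKM in control libraries (SD, n = 3 each), and Krt19 averaged 32.7 ± 13.4 FPKM in blebbistatin libraries and 24.7 ± 5.48 FPKM in control libraries. Snai2 over Cdh1 was 0.137, 0.167 and 0.188 in blebbistatin replicates 1 to 3, against 0.167, 0.112 and 0.156 in control replicates 1 to 3, with overlapping groups.

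Btbd7, the cleft protein named above, was also looked up after the other values were seen. It stood at 15.9, 15.1 and 13.8 FPKM in blebbistatin replicates 1 to 3 and at 12.3, 16.1 and 13.9 FPKM in control replicates 1 to 3, with overlapping groups (log2 fold change 0.08 ± 0.11, SE, limma adjusted p = 0.982).

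Some markers of other cell types that are known to express Vim were present. Of the 12 Schwann and neural crest markers 7 averaged below 1 FPKM. Of the other 5, Sox10, also a marker of the bud epithelium, was at 121, 158 and 152 FPKM in blebbistatin replicates 1 to 3 and at 214, 216 and 206 FPKM in control replicates 1 to 3 (limma adjusted p = 0.126). The receptor gene Erbb3 averaged 53.1 ± 1.39 FPKM in blebbistatin libraries and 80.7 ± 8.04 FPKM in control libraries, without overlap, as for 14.3% of genes tested (limma adjusted p = 0.0785). Ngfr, Postn and Mbp averaged 18.8, 14.5 and 8.91 FPKM over the 6 libraries. Postn is also a marker of gland mesenchyme, with the highest mean of that list.

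Of the 12 endothelial markers 11 averaged below 1 FPKM, Pecam1 among them, while Egfl7 averaged 8.86 FPKM over the 6 libraries. Of the 12 markers of ganglion neurons 11 averaged below 1 FPKM, with Tubb3 at 0.725 ± 0.429 FPKM in blebbistatin libraries and 0.558 ± 0.530 FPKM in control libraries, while Uchl1 averaged 29.6 FPKM over the 6. Of the 11 leukocyte markers found 10 averaged below 1 FPKM, Tyrobp among them, and Cd68 averaged 1.23 FPKM. Of the 12 markers of skeletal muscle and chondrocytes 11 averaged below 1 FPKM, Sox5 among them, and Sox6 averaged 4.01 FPKM. The part of these cell types in the level of Vim was not tested.

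Of 17 markers of gland epithelium tested, 8 had higher and 9 lower values in blebbistatin libraries, and 0 passed (limma). Over all genes tested, 55.2% had higher values. Among the lower ones, Kit and the claudin gene Cldn10 did not overlap between the groups, as for 14.3% of genes tested. Kit averaged 12.6 ± 6.28 FPKM in blebbistatin libraries and 30.1 ± 7.75 FPKM in control libraries (limma adjusted p = 0.259), and Cldn10 averaged 163 ± 6.92 FPKM in blebbistatin libraries and 228 ± 19.2 FPKM in control libraries (limma adjusted p = 0.121). Of the mesenchyme markers, Col5a1 averaged 13.6 ± 2.49 FPKM in blebbistatin libraries and 10.9 ± 0.693 FPKM in control libraries, and Col1a2 averaged 0.932 ± 0.552 FPKM in blebbistatin libraries and 1.77 ± 1.37 FPKM in control libraries (limma adjusted p = 0.555 and 0.849). The globin genes Hba-a1, Hba-a2, Hbb-bt and Hbb-b1 had log2 fold changes between -2.47 and -2.32 with overlapping groups (limma adjusted p from 0.674 to 0.836).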
